A study of Mus musculus with 45 samples.

Results

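Primary tumors grown from 4T1 cells were compared with primary tumors grown from 67NR cells, 3 tumors against 3, across every gene symbol with more than 10 counts over the 6 libraries. This rule kept 18235 of the 55367 symbols in the count table. Both lines come from the same spontaneous mammary carcinoma of a BALB/cfC3H mouse. 67NR cells form tumors at the injection site, whereas 4T1 cells also spread to the lung, liver, bone and brain, and the comparison asks how the tumors of these lines differ in gene expression. Female BALB/c mice of all groups received a porous polymer scaffold at 7 to 8 weeks of age, and 2 weeks later cells of a line were injected into the fourth right mammary fat pad. Tumors were taken on day 14. Each group stands for 1 cultured line, with 4T1 cells obtained from Perkin Elmer and 67NR and 4T07 cells from Karmanos, so that line and source cannot be told apart. The labels do not tie the tissues to individual mice, and p-values measure the spread between these tumors. The 3 tumors of the 4T07 line, which spreads but rarely forms visible metastases, entered the same fit to help estimate the spread and are given only as a reference.

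Carcinoma cells that keep an epithelial state are joined by E-cadherin, claudins and desmosomes and stand on keratin filaments, a program held by factors such as Grhl2 and Ovol2 and opposed by factors of the Snail, Twist and Zeb families in the epithelial-mesenchymal transition (EMT). A tumor also holds fibroblasts, which lay down collagen, and macrophages, neutrophils and lymphocytes, which are drawn in by cytokines and chemokines. Libraries made from whole tumors mix all of these cells, and fewer cells of a type cannot be told apart from less RNA per cell.

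The libraries held 3542368 to 3720818 counts in 67NR tumors and 4632960 to 5468658 in 4T1 tumors. Mitochondrial transcripts took 9.68% to 11.6% of counts in 67NR and 7.05% to 8.94% in 4T1 tumors, and the 100 most abundant genes took 32.2% to 34.4% and 25.0% to 26.6%. On the log2(CPM + 1) scale, tumors of the same line correlated more closely (Pearson's r across genes 0.962 to 0.980 within 67NR and 0.979 to 0.987 within 4T1) than 67NR with 4T1 tumors (0.880 to 0.903). CPM stands for the counts of a gene scaled to a library total of 1000000. Replicate libraries differed by more than sampling noise, so none was counted as a duplicate.

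Transcripts that mark a tumor line did not fall with the labels in every library, and the tumors are named below as labelled. Of the 20 genes with the largest changes, 8 that were high in 67NR tumors and at 0 to 5 counts in sum in each control library (Pnma5, Rhox5, Ptprtos, Col22a1, Xlr3c, Lncenc1, Sprr1a and Cldn9) summed to 6150, 5767 and 5428 counts in the 67NR tumors and to 31, 24 and 19 in the 4T1 tumors. In spleens of 67NR mice the sum was 0, 2 and 1 counts. Spleens of 4T07 mice held 910, 815 and 240 counts of the same genes, although the 4T07 tumors held only 216, 67 and 23. Lungs and scaffolds of 67NR mice held 2 to 46 and 6 to 13 counts, against 89 to 338 and 22 to 639 in 4T07 mice. Organs of 4T1 mice held some as well, with 127, 20 and 17 counts in scaffolds, 50, 4 and 13 in lungs and 2, 7 and 22 in spleens. The transcripts that marked the 67NR tumors were thus more abundant in organs of mice labelled 4T07 than in those of mice labelled 67NR, and the reason was not tested. The 3 genes of the opposite kind (Tmprss11e, Ibsp and Csf3) summed to 1354, 954 and 1028 counts in 4T1 tumors and to 3 counts or fewer in every scaffold, lung and spleen.

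**Figure D1:**
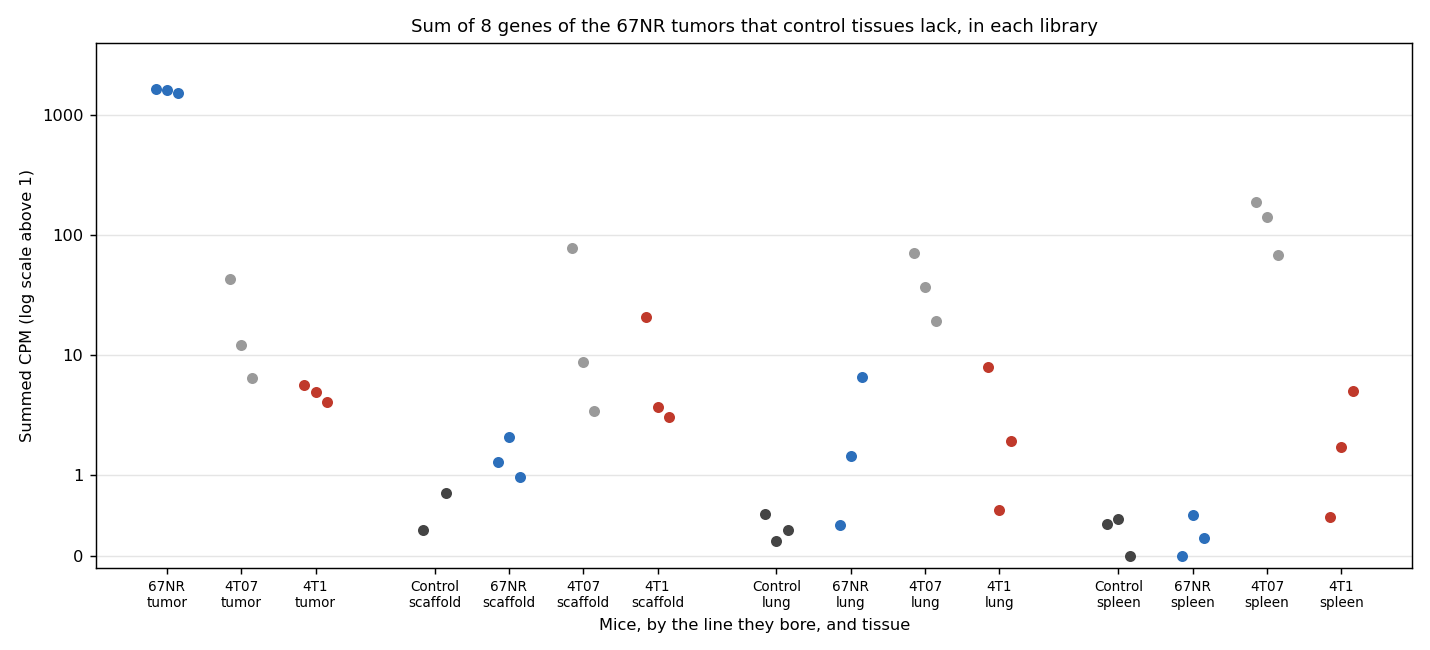
Summed CPM of the 8 genes in every library, grouped on the x axis by tissue and by the line the mice bore, with 1 point per library and a y axis that is logarithmic above 1. The 67NR tumors sit at 1532 to 1653 CPM, spleens of 4T07 mice at 68.7 to 187 CPM and spleens of 67NR mice at 0.511 CPM or lower.

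The 67NR tumors also held lung transcripts, as did other tissues of the series. These were looked at after their values were seen. Sftpc, which encodes surfactant protein C of alveolar type II cells, stood at 17.5, 111 and 20.6 CPM in 67NR tumors and at 3.11, 3.48 and 1.08 CPM in 4T1 tumors. The club cell gene Scgb1a1 stood at 22.3, 186 and 51.4 CPM against 6.22, 3.89 and 2.37 CPM. Both were highest in 67NR replicate 2, and in no gene of this pair did the groups overlap. Summed over 10 lung epithelial genes, a list made at the same point, the 67NR tumors reached 68.5, 440 and 101 CPM, which is 0.163%, 1.04% and 0.239% of the mean of control lungs, and the 4T1 tumors 24.1, 26.6 and 10.1 CPM. The 4T07 tumors reached 131, 49.5 and 38.7 CPM. Sftpc was also seen in scaffolds, at a median of 22.2 CPM in control mice and at 28.5 to 127 CPM in 67NR mice. It stood at 7.90 to 33.0 CPM in scaffolds of 4T1 mice and at 0.692 to 4.10 CPM in control spleens. Without 67NR replicate 2 the mean sum of the 67NR tumors was 84.7 CPM in place of 203 CPM, and the log2 fold changes of Sftpc and Scgb1a1 were -3.10 and -3.36 in place of -4.53 and -4.63. Of the 10 genes, 8 were called lower in 4T1 tumors by the rule given in the next paragraph, which called 11.0% of all genes lower, and 6 of the 8 tested were called lower without that replicate. Replicate 2 also held more neutrophil transcripts than the other 67NR tumors, as described below.

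Differences were tested with edgeR's quasi-likelihood test and Benjamini-Hochberg adjustment over all genes tested, and a gene is called where its adjusted p is under 0.05 and its fold change is over 2. In all, 4256 genes (23.3%) were called: 2247 (12.3%) were higher and 2009 (11.0%) lower in 4T1 tumors. The change exceeded a log2 fold change of 2 in either direction in 1971 of them. With 3 tumors against 3, the values of the groups did not overlap in 9077 genes (49.8%; 32.9% higher and 16.8% lower in 4T1 tumors), and 4090 genes (22.4%) were both called and not overlapping. By the same rule 9.09% of the genes were called between 4T1 and 4T07 tumors and 30.2% between 4T07 and 67NR tumors, comparisons that share tumors with this one. Without 67NR replicate 2 the calls were 3639, of which 1892 were higher and 1747 lower. The median log2 fold change of all genes was 0.00338 with TMM factors, which scale each library to the bulk of its genes, and 0.25 on library totals alone. On library totals 3043 genes were called higher and 1372 lower, so that 68.9% of the calls were higher in place of 52.8%. Log2 fold changes below use TMM factors and levels do not.

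Of the 10 genes with the largest fitted increases, 9 had no count in any 67NR tumor, so that their folds are lower bounds and their order is not known. Tmprss11e, a serine protease anchored in the membrane of epithelial cells, stood at 145, 123 and 127 CPM in the 4T1 tumors, at least 159-fold above a floor of 3 counts per 67NR library. Ibsp, the bone sialoprotein of mineralizing matrix, stood at 86.3, 53.3 and 76.6 CPM (at least 86.8-fold). Pthlh, the parathyroid hormone-related protein that drives bone resorption, stood at 18.7, 26.2 and 32.8 CPM (at least 31.2-fold). None of these had a count in 67NR tumors, and the 10 genes were chosen among those whose groups do not overlap. Nptx1, a neuronal pentraxin, was at least 98.3-fold higher at 92.9, 96.5 and 55.5 CPM. Csf3, the granulocyte colony-stimulating factor, was at least 21.3-fold higher at 16.3, 18.9 and 17.9 CPM. The claudins Cldn2 and Cldn3, which are tight junction proteins, were at least 19.0-fold and 12.3-fold higher, and the epidermal transcription factor Bnc1 and the small GTPase Rem2 at least 17.3-fold and 16.3-fold. The 4T07 tumors lay between the other lines for Bnc1, at a mean of 10.0 CPM, and had no count of Tmprss11e. Fermt1, the integrin activator kindlin-1 of epithelia, had 1 count in each 67NR tumor and 102 to 124 CPM in 4T1 tumors, a ratio of 414 with a 95% counting interval of 142 to 2008.

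The largest decreases included germline genes, a claudin and a noncoding RNA. Rhox5, a homeobox gene of the reproductive tract, fell from 653, 890 and 852 CPM in 67NR tumors to 2.56, 1.02 and 1.30 CPM in 4T1 tumors (log2 fold change -9.14, SE 0.58, adjusted p = 6.57e-08). Pnma5, of the paraneoplastic antigen family, fell from 443, 342 and 301 CPM to 0.731, 0.410 and 0.216 CPM (-9.75, SE 0.61, adjusted p = 5.57e-08). Lncenc1, a long noncoding RNA known from embryonic stem cells, fell from 331, 171 and 163 CPM to 1.10, 0.820 and 1.08 CPM (-7.98, SE 0.53). The genes of this paragraph were chosen among called genes whose groups do not overlap. Cldn9, a claudin that went the other way from Cldn2 and Cldn3, stood at 136, 133 and 134 CPM against 1.10, 2.25 and 1.08 CPM (-6.74, SE 0.48). Sprr1a, a protein of the cornified envelope, stood at 36.6, 29.9 and 37.0 CPM against 0, 0.410 and 0.432 CPM. Ptprtos, named as an antisense transcript, and the collagen gene Col22a1 had no count in any 4T1 tumor and were at least 18.9-fold and 17.7-fold lower. The strand setting of the counting was not given in the sources used here, so reads of Ptprtos and of Ptprt cannot be separated. Xlr3c, Gstm7 and Cfap299 had 1 or 2 counts over the 4T1 tumors, and their levels in 67NR tumors were higher by ratios of 398 (71.4 to 15723), 156 (43.2 to 1290) and 142 (39.2 to 1170). Xlr3c and Gstm7 belong to families of near-identical genes, whose reads may be split between copies.

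**Figure D2:**
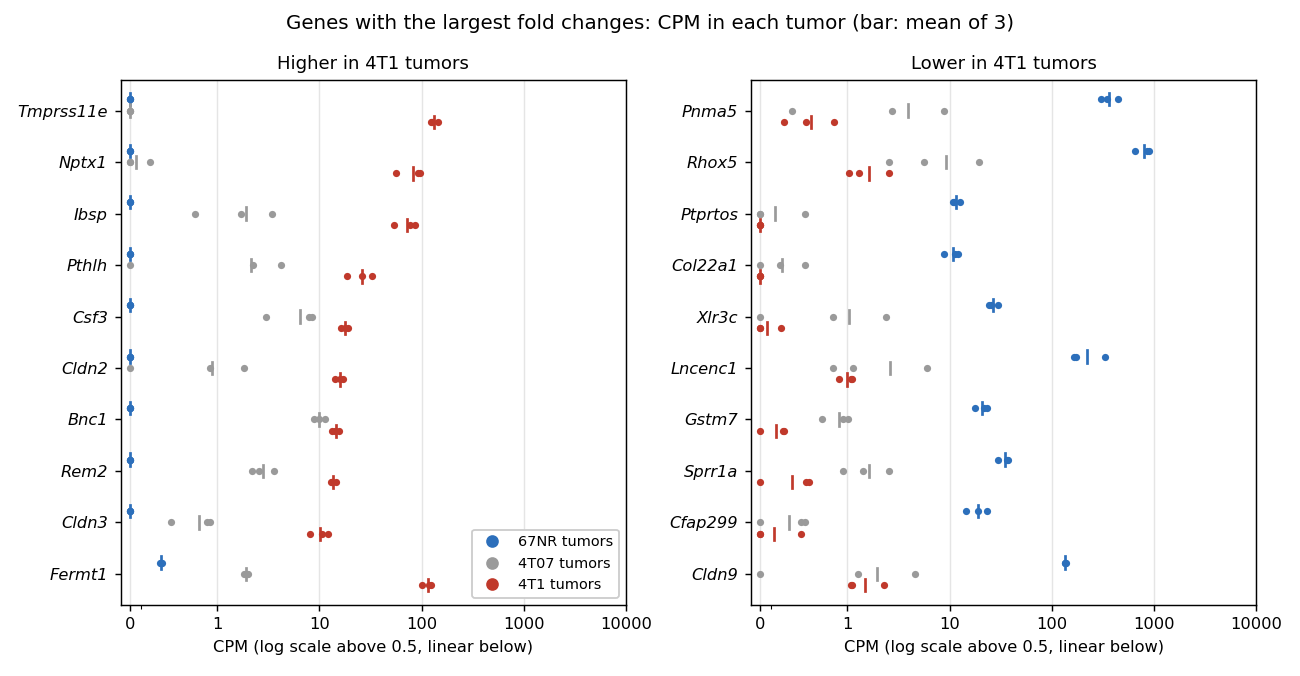
CPM in each tumor of the 20 genes with the largest fold changes, on an axis that is logarithmic above 0.5, with points for tumors and bars for means of 3. The genes were chosen among those whose groups do not overlap, and Rhox5 falls from a mean of 798 CPM to 1.63 CPM.

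Among abundant genes, those with the largest gain in CPM encoded matrix and imprinted transcripts. Fn1, the fibronectin of the provisional matrix, rose from 845, 565 and 527 CPM to 2678, 2912 and 2565 CPM (log2 fold change 1.84, SE 0.25, adjusted p = 7.79e-05). Spp1, the secreted matrix protein osteopontin, rose from 524, 541 and 560 CPM to 2040, 2192 and 2490 CPM (1.80, SE 0.20). H19, an imprinted noncoding RNA expressed in fetal tissues, stood at 2.69, 1.68 and 9.60 CPM in 67NR tumors and at 1667, 1377 and 1561 CPM in 4T1 tumors (8.12, SE 0.42, adjusted p = 1.34e-08). The groups were apart in each of the 3 genes, and in the 4T07 tumors H19 averaged 6.60 CPM. Among the genes with the largest loss, S100a4, a calcium-binding protein linked to cell motility, fell from 5453, 3473 and 3721 CPM to 779, 1125 and 413 CPM (-2.69, SE 0.33, adjusted p = 2.94e-05). S100a6 of the same family fell from 12265, 17144 and 15203 CPM to 7759, 8181 and 6907 CPM (-1.22, SE 0.22), and the ribosomal protein gene Rps29 fell from 5597, 5830 and 5836 CPM to 3260, 3508 and 2706 CPM (-1.12, SE 0.18). The values did not overlap, but the fold changes of S100a6 and Rps29 dropped below 2 on library totals. Of 87 cytosolic ribosomal protein genes, 9 were called lower and 2 higher, with a median log2 fold change of -0.46 that was -0.23 on library totals. The remaining abundant losses were Gm10800, at 3860, 545 and 1979 CPM against 49.9, 39.6 and 76.6 CPM, and CT010467.1, a feature named for its genomic clone that took 39564 to 53740 CPM in 67NR and 20735 to 31422 CPM in 4T1 tumors. The call on CT010467.1 was lost on library totals and without 67NR replicate 2, where its fold change dropped below 2 (adjusted p = 0.0113 and 0.0243).

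Epithelial genes were higher in 4T1 tumors as a group. Of 25 tested genes of epithelial junctions, 16 were higher and 2 lower, with a median log2 fold change of 2.69 beside 0.00338 over all genes. Of all genes tested, 12.3% were called higher and 11.0% lower, the shares to set beside the counts of each list below. Groups did not overlap in 49.8% of all genes, the share to set beside each remark below that groups were apart. Many genes named below were chosen for the size of their change. Cdh1, which encodes E-cadherin, stood at 8.60, 13.7 and 4.52 CPM in 67NR tumors and at 159, 169 and 158 CPM in 4T1 tumors (3.92, SE 0.28, adjusted p = 1.54e-07). Epcam, an adhesion molecule of simple epithelia, stood at 4.84, 6.99 and 2.26 CPM against 207, 203 and 235 CPM (5.26, SE 0.28, adjusted p = 1.44e-08). The groups did not overlap in either gene, and the 4T1 tumors stood close together. Cldn4 stood at 3.49, 2.80 and 1.41 CPM against 158, 159 and 161 CPM (5.69, SE 0.24), and Cldn7 at 3.49, 3.64 and 1.98 CPM against 83.4, 79.1 and 97.8 CPM (4.58, SE 0.23). The tight junction genes Cgn, Ocln, Marveld2 and Marveld3 rose too, by 5.07, 3.09, 4.02 and 3.80. Beside Cldn9 the called gene that was lower was Cldn6, which had 3 counts over the 4T1 tumors and was higher in 67NR tumors by a ratio of 6.45 (2.21 to 31.3). By contrast, Cldn1, Cldn12, Tjp1 and Llgl2 had log2 fold changes of -0.25, 0.28, 0.42 and -0.03 and were not called.

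Desmosomes anchor keratin filaments between cells, and hemidesmosomes anchor them to the basement membrane. In this list 14 of 19 genes were higher and none lower, with a median of 3.83. Dsp, the desmoplakin that binds keratins, stood at 3.49, 3.36 and 9.03 CPM in 67NR tumors and at 91.6, 85.1 and 91.5 CPM in 4T1 tumors (3.83, SE 0.30). Itgb4, the integrin of hemidesmosomes, stood at 2.15, 4.48 and 3.11 CPM against 170, 200 and 215 CPM (5.65, SE 0.33). No 67NR tumor reached 10 CPM of either gene. Of the chains of laminin-332, the ligand of that integrin, Lama3 rose by 3.52, and Lamb3 had 3 counts over the 67NR tumors, a ratio of 76.7 (26.2 to 372). Plec and Dst, the plakins that also serve cells other than epithelia, had log2 fold changes of -0.34 and 0.04 and were not called.

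Keratins form the filaments that desmosomes anchor, and the pair of simple epithelia rose most: Krt18 stood at 2.96, 3.92 and 3.67 CPM in 67NR tumors and at 540, 431 and 375 CPM in 4T1 tumors (6.74, SE 0.30, adjusted p = 6.44e-09), and Krt8 at 1.34, 1.96 and 0.847 CPM against 150, 142 and 152 CPM (6.47, SE 0.30). Krt7 of ducts stood at 3.76, 6.43 and 0.565 CPM against 238, 205 and 276 CPM, and Krt14 of basal cells at 2.69, 2.52 and 5.36 CPM against 38.8, 44.1 and 61.7 CPM. None of these 4 genes had overlapping groups. Of 13 keratins tested, 6 were higher and 1, Krt80, was lower, with a median of 1.69. Krt10 and Krt13 of stratified epithelia had log2 fold changes of -0.62 and -0.44 and were not called.

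Factors that hold the epithelial program were mostly present at low counts. Of 18 tested, 11 were higher and none lower, with a median of 1.90. Esrp1, the splicing factor of epithelial isoforms, stood at 0.269, 0.560 and 0.565 CPM against 11.9, 11.3 and 11.0 CPM (4.31, SE 0.52). Grhl2, a Grainyhead factor that activates Cdh1 and claudin genes, stood at 2.42, 1.68 and 1.69 CPM against 13.9, 15.6 and 20.3 CPM (2.84, SE 0.34). The lowest 4T1 tumor was above the highest 67NR tumor in both. Elf3 and Ovol2 had 1 count over the 67NR tumors, and their ratios of 40.5 (7.27 to 1600) and 21.0 (3.77 to 829) were loosely set. Klf4, Ehf and Grhl1 were not called, with log2 fold changes of -0.89, 0.42 and 0.67.

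Several of these genes carry, near their transcription start, the 6 letters CAGGTG or CACCTG, the E-box that Snail and Zeb factors bind, and the promoters of 4 genes that rose are shown because the E-box lies within them. Sequences are from RefSeq on GRCm38.p6, run from 250 bases before the annotated start to 50 bases into the transcript, and have the E-box and the Grainyhead core (AACCGG or CCGGTT) in capitals.
Epcam, chr17:87635729-87636028, plus strand: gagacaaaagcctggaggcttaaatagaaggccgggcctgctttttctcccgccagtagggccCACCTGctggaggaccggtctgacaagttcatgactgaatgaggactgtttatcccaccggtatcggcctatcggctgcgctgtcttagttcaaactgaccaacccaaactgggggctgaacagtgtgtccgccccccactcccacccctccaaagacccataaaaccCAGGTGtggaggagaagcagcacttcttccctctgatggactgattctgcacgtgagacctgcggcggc
Cldn7, chr11:69965171-69965470, plus strand: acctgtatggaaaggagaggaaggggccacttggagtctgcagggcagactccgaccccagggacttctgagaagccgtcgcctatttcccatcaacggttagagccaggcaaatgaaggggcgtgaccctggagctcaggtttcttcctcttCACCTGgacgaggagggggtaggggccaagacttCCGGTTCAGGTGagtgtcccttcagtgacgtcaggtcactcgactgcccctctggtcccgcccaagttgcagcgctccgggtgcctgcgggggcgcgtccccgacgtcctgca
Krt8, chr15:102004293-102004592, minus strand: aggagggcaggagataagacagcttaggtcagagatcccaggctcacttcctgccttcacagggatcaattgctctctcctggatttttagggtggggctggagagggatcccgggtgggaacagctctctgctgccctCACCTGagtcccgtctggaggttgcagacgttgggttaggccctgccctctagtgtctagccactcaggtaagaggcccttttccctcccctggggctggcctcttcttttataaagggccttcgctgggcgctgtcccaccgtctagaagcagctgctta
Krt18, chr15:102027966-102028265, plus strand: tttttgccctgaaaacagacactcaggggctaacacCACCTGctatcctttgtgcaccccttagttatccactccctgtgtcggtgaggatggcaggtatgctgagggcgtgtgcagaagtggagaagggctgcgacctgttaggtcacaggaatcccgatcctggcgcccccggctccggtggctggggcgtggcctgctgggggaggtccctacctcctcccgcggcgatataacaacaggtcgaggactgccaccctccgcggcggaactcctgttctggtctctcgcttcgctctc
Counted from the start, the E-boxes begin at -187 and -19 in Epcam, at -97 and -57 in Cldn7, at -111 in Krt8 and at -214 in Krt18. In Cldn7 the Grainyhead core begins at -63 and directly precedes the second E-box, while the window of an upstream Cldn7 start (chr11:69964529-69964828) held neither motif. Both motifs were searched on both strands. The E-box was present in 20.2% of 32851 promoter windows of the genome and in 16 of 60 windows of the 49 matched genes among the first members of each pathway list, and the Grainyhead core in 6.83% and in 3 of 60. A match in a window is a description of its letters and shows no binding.

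Factors that drive EMT were called in both directions. Zeb1, a repressor of Cdh1, fell from 110, 89.0 and 81.9 CPM in 67NR tumors to 42.8, 40.4 and 36.9 CPM in 4T1 tumors (-1.47, SE 0.18, adjusted p = 3.26e-05), and Snai2 fell by 1.20. Snai1 rose from 4.30, 6.71 and 8.47 CPM to 25.4, 28.9 and 35.4 CPM (1.95, SE 0.25, adjusted p = 4.43e-05). Twist1, at 7.26, 15.1 and 25.7 CPM against 11.7, 19.5 and 23.5 CPM, overlapped between the groups and was not called. Foxc2, a forkhead factor of mesenchyme, had 1 count over the 67NR tumors and stood at 22.3, 18.9 and 22.2 CPM in 4T1 tumors, a ratio of 229 (41.2 to 9058), while Foxc1 rose from 13.2, 14.3 and 21.7 CPM to 85.8, 86.7 and 96.9 CPM. Of 11 EMT factors tested, 5 were higher and 2 lower, beside 12.3% and 11.0% of all genes, with a median of 0.20.

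Mesenchymal genes, which the same transition induces, were split as well, with 8 of 18 higher, 2 lower and a median of 0.41. Vim, the intermediate filament vimentin, stood at 1184, 1922 and 2089 CPM in 67NR tumors and at 1763, 1917 and 2006 CPM in 4T1 tumors, and the groups overlapped (-0.13, SE 0.22, adjusted p = 0.675). Cdh2, which encodes N-cadherin, fell from 14.8, 12.9 and 15.0 CPM to 2.38, 1.02 and 1.30 CPM (-3.38, SE 0.38). The contractile genes Acta2 and Tagln rose by 2.84 and 3.81, and Ccn2, a secreted regulator of matrix deposition, stood at 0.269, 1.68 and 4.23 CPM against 52.8, 82.8 and 190 CPM (5.47, SE 0.81). High epithelial transcripts and high transcripts of Fn1, Snai1 and Tagln thus stood in the same 4T1 tumors, without a measure of which cells held them.

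**Figure D3:**
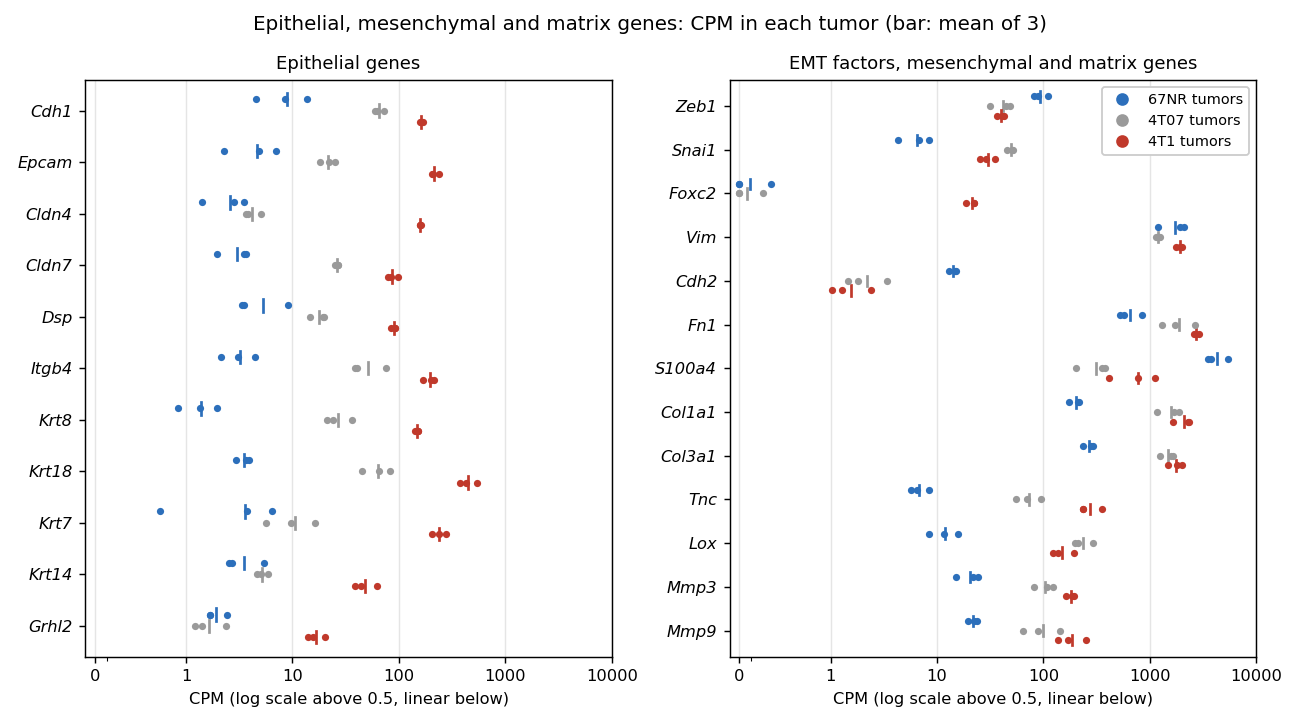
CPM in each tumor of epithelial genes (left) and of EMT factors, mesenchymal and matrix genes (right), on an axis that is logarithmic above 0.5, with points for tumors and bars for means of 3. Epithelial genes such as Cdh1 and Epcam are low in every 67NR tumor and high in every 4T1 tumor, whereas Vim overlaps and Zeb1, Cdh2 and S100a4 are lower in 4T1 tumors.

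Membrane serine proteases and their Kunitz inhibitors, which pair up on epithelial surfaces, were higher in 11 of 17 genes and lower in 1, with a median of 3.28. St14, the protease matriptase, stood at 0.538, 1.40 and 0.282 CPM in 67NR tumors and at 17.7, 18.7 and 25.3 CPM in 4T1 tumors (4.50, SE 0.41, adjusted p = 2.05e-06). Its inhibitors rose with it: Spint1 stood at 1.34, 1.40 and 1.13 CPM against 54.7, 51.7 and 43.4 CPM (5.00, SE 0.29), and Spint2 at 0.538, 0.560 and 1.98 CPM against 38.4, 44.3 and 44.2 CPM (5.10, SE 0.35). The protease and both inhibitors were apart between the groups. Prss8, a protease that acts with matriptase, had a ratio of 18.8 (6.44 to 91.2). The serpin Serpine2, an inhibitor of plasminogen activators, rose by 3.24. Klk10 fell by 2.15, and Tmprss2 and Tmprss4 had log2 fold changes of -0.04 and -0.03.

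Genes of the interstitial matrix rose in 29 of 41 cases and fell in none, with a median of 1.52. Col1a1, a chain of type I collagen, rose from 217, 173 and 212 CPM to 1652, 2267 and 2340 CPM (3.13, SE 0.22, adjusted p = 1.7e-07), and Col1a2, its partner chain, from 292, 429 and 466 CPM to 2217, 2752 and 4193 CPM (2.69, SE 0.30). Col3a1 rose from 278, 234 and 294 CPM to 1471, 2015 and 1776 CPM (2.46, SE 0.19). The groups were far apart in these collagens. Tnc, the tenascin of wounds and tumor stroma, rose from 8.33, 6.43 and 5.65 CPM to 237, 235 and 354 CPM (5.09, SE 0.28). Lox, which crosslinks collagen, rose from 15.9, 8.39 and 11.6 CPM to 136, 123 and 193 CPM (3.41, SE 0.26), and Loxl2, P4ha2 and Plod2, which also modify collagen, by 3.47, 2.88 and 1.96. Sparc, Serpinh1 and Vcan were not called, with log2 fold changes of 0.14, 0.20 and 0.19.

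In the basement membrane 7 of 17 genes were higher and none lower, with a median of 0.89, or 0.87 with genes absent from 1 group at their bound. Lama5, a laminin chain, rose from 23.4, 20.4 and 18.9 CPM to 122, 128 and 139 CPM (2.39, SE 0.18), and Col18a1, the source of endostatin, from 29.3, 24.1 and 19.5 CPM to 152, 146 and 124 CPM (2.29, SE 0.17). Col4a1, at 220, 304 and 305 CPM against 400, 478 and 506 CPM, did not overlap and was not called (0.48, adjusted p = 0.0978). On library totals 11 of the 17 genes were higher. Lama1 and Col4a6, both under 2 CPM in every 67NR and 4T1 tumor, were called in the full fit, and Lama1 was not called without 4T1 replicate 3 or without 67NR replicate 1 or 3 (adjusted p = 0.0536, 0.0629 and 0.0649).

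Matrix proteases were higher in 21 of 39 genes and lower in 1, with a median of 1.16. Mmp9, a gelatinase, rose from 23.7, 22.1 and 19.5 CPM to 170, 137 and 249 CPM (2.84, SE 0.29, adjusted p = 5.37e-06), and Mmp3, a stromelysin, from 24.5, 15.1 and 21.7 CPM to 162, 185 and 193 CPM (2.90, SE 0.21). Mmp10, a related stromelysin, stood at 0.538, 0.560 and 0.282 CPM against 14.8, 16.8 and 26.5 CPM. These groups did not overlap. The inhibitor Timp1 rose from 87.9, 119 and 107 CPM to 264, 220 and 355 CPM (1.16, SE 0.23), a change that fell below 2-fold without 4T1 replicate 3, while Timp2 and Timp4 had log2 fold changes of -0.78 and -0.82 and were not called. Adamts14 was the member that fell, by 1.06.

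Bone matrix genes, of interest because 4T1 cells can grow in bone, were higher in 6 of 13 and lower in 2, with a median of 1.29. Beside Ibsp and Spp1, Runx2, the master factor of osteoblasts, rose from 9.94, 8.11 and 11.0 CPM to 27.8, 30.7 and 38.9 CPM (1.49, SE 0.23), and Mgp, an inhibitor of calcification, from 29.6, 33.3 and 36.1 CPM to 233, 195 and 183 CPM (2.38, SE 0.21). Dlx3, a homeobox factor of bone and skin, fell from 3.23, 5.04 and 4.80 CPM to 0, 1.02 and 0.216 CPM. The phosphate regulator Phex fell by 1.70. All 4 genes were apart between the groups, as were 49.8% of all genes tested.

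Genes that respond to low oxygen, together with glycolysis, were higher in 18 of 31 and lower in 1, with a median of 1.25. Car12, a carbonic anhydrase of the cell surface, stood at 0.269, 0.280 and 0.565 CPM in 67NR tumors and at 28.0, 32.6 and 39.9 CPM in 4T1 tumors (6.16, SE 0.38), and Car9 rose by 3.12. Slc2a1, the glucose transporter GLUT1, rose from 41.1, 44.5 and 42.9 CPM to 122, 127 and 158 CPM (1.41, SE 0.20), and Pdk1, which limits pyruvate entry into mitochondria, from 8.33, 5.87 and 9.60 CPM to 82.1, 86.1 and 83.5 CPM (3.15, SE 0.23). No 67NR tumor reached the lowest 4T1 tumor in any of them. Vegfa, the endothelial growth factor, rose from 18.0, 17.1 and 18.3 CPM to 41.7, 40.8 and 67.1 CPM (1.24, SE 0.23), though its change dropped below 2-fold without 4T1 replicate 3. Several enzymes of core glycolysis were not called: Gapdh, Pgk1 and Pkm had log2 fold changes of 0.37, 0.44 and 0.04, and Ldha, at 0.76, passed the fold threshold on library totals alone among the settings tried. Angptl4, a lipoprotein lipase inhibitor, was the member that fell, by 1.15.

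Respiratory chain genes were more often lower than higher, with 11 of 47 genes lower and 2 higher and a median of -0.59, and on library totals 4 lower and 2 higher with a median of -0.32. Uqcrq, a subunit of complex III, fell from 426, 551 and 556 CPM to 241, 221 and 188 CPM (-1.49, SE 0.20, adjusted p = 4.79e-05), and Cox6b1, a subunit of complex IV, from 465, 633 and 598 CPM to 301, 253 and 226 CPM (-1.38, SE 0.21). Ndufs1 and Atp5a1, core subunits of complex I and of the ATP synthase, had log2 fold changes of 0.01 and -0.27 and were not called. Ndufa1, at 193, 544 and 847 CPM in 67NR tumors, and Sdhd, at 0, 1.68 and 11.6 CPM, differed widely among replicates, and DESeq2, another count model, called neither (adjusted p = 0.0856 and 0.198). Ndufa1 was also not called on library totals (adjusted p = 0.0709) or without any tumor but 67NR replicate 1 (0.0538 to 0.171), and Sdhd was not called without 4T1 replicate 2 or 3 or 67NR replicate 1 or 2 (0.0676 to 0.128).

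Few genes of proliferation were called, where 12.3% of all genes were higher and 11.0% lower. None of 40 genes of cell cycle and replication was higher and 2 were lower, with a median of -0.34. Top2a, the topoisomerase of dividing cells, stood at 788, 642 and 641 CPM in 67NR tumors and at 773, 761 and 711 CPM in 4T1 tumors, and the groups overlapped. Mki67, at 164, 116 and 126 CPM against 111, 96.3 and 102 CPM, had an adjusted p of 0.013 with a log2 fold change of -0.63 and was not called for its size. The 2 called genes were Ccne1, which encodes cyclin E (-1.31), and Rrm2 of nucleotide synthesis (-1.13). Rrm2 was not called on library totals (adjusted p = 0.0620) or without 4T1 replicate 1 or 3 or 67NR replicate 2 or 3 (0.0561 to 0.0771), and the list held 5 lower genes without 67NR replicate 1 and 1 without 4T1 replicate 3.

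Among cell cycle inhibitors the outstanding gene was Cdkn2a, which encodes p16 and p19Arf. It stood at 162, 155 and 136 CPM in 67NR tumors and at 1.46, 3.89 and 2.37 CPM in 4T1 tumors (-6.12, SE 0.35, adjusted p = 2.59e-08). Cdkn1a, which encodes p21, fell from 357, 434 and 339 CPM to 73.7, 73.8 and 136 CPM (-2.25, SE 0.25). Both genes were apart between the groups. Mtap, the neighbour of Cdkn2a, went the other way, from 166, 261 and 243 CPM to 676, 658 and 649 CPM (1.30, SE 0.20). Trp53, at 50.8, 58.7 and 69.4 CPM against 27.2, 37.5 and 47.9 CPM, did not pass the fold threshold (-0.92), but did without 4T1 replicate 3 or 67NR replicate 1 (-1.15 and -1.07). Of the 18 genes, 2 were lower and 1 higher, beside 11.0% and 12.3% of all genes. The median of the list, -0.05, was 0.21 on library totals.

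Interferon-stimulated genes were called in both directions. In all, 14 of 38 were lower and 4 higher, with a median of -0.15 that turned to 0.09 on library totals. The lower genes included antiviral effectors and regulators of the type I response: Irf7 fell from 78.7, 62.1 and 48.0 CPM to 20.7, 10.5 and 12.5 CPM (-2.34, SE 0.25, adjusted p = 8.07e-06), Ifit3 from 23.7, 39.7 and 33.3 CPM to 6.58, 6.76 and 10.4 CPM (-2.29, SE 0.27), and Isg15 from 182, 279 and 241 CPM to 110, 87.1 and 147 CPM (-1.29, SE 0.25). In none of these did a 4T1 tumor reach a 67NR tumor. Mx1, Rsad2 and Oasl1 fell by 2.09, 1.95 and 2.22, and Cxcl10, a chemokine for T cells, by 1.25, though by less than 2-fold without 4T1 replicate 2. The 4 higher genes were Irf1, Gbp2, Irgm2 and Cd274, which encodes PD-L1, at log2 fold changes of 1.14, 1.29, 1.59 and 1.99.

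Of 19 genes of MHC class I presentation, 6 were higher and none lower, with a median of 0.85. The immunoproteasome subunit Psmb8 rose from 36.8, 32.2 and 27.9 CPM to 155, 116 and 147 CPM (1.86, SE 0.21), and the peptide transporter subunit Tap2 from 2.69, 1.68 and 10.4 CPM to 30.5, 53.1 and 90.9 CPM (3.30, SE 0.62). B2m and H2-K1, the light chain and a heavy chain of class I, overlapped between the groups with log2 fold changes of 0.07 and 0.08. Beside 12.3% of all genes called higher, class II genes were called in 2 of 10 cases, both higher. Their coactivator Ciita rose from 9.94, 8.11 and 4.52 CPM to 32.2, 17.8 and 22.0 CPM (1.43, SE 0.33). The other, H2-Ob, overlapped between the groups and was not called without either 4T1 replicate 1 or 2 or without 67NR replicate 2 or 3 (adjusted p = 0.0802 to 0.139), which leaves Ciita.

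Cytokines and chemokines were higher in 19 of 38 genes and lower in 3, with a median of 1.04. Beside Csf3, the neutrophil chemokine Cxcl2 stood at 1.61, 0 and 0.565 CPM in 67NR tumors and at 30.7, 21.5 and 60.2 CPM in 4T1 tumors (5.38, SE 0.65), and Ptgs2, the cyclooxygenase of inflammation, at 0.538, 0.839 and 1.13 CPM against 37.7, 37.3 and 76.2 CPM (5.63, SE 0.48). Il1b, an inflammatory cytokine, and Lcn2, an iron-binding protein of inflammation, rose by 3.07 and 3.80. Il6 and Cxcl3 had 3 counts or fewer over the 67NR tumors, with a ratio of 38.3 (6.88 to 1515) and a ratio of 35.5 (6.36 to 1400). Cxcl1, which shares a receptor with Cxcl2, overlapped at 12.6, 5.32 and 4.80 CPM against 15.0, 11.5 and 18.8 CPM (0.75, adjusted p = 0.27). The 3 genes that fell were Ccl5, a chemokine for T cells, Ccl8 and Il34, by 2.65, 1.82 and 1.20. Csf1, Ccl2 and Tnf had log2 fold changes of 0.13, -0.32 and -0.51 and were not called.

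Ligands of the epidermal growth factor receptor changed in both directions. Tgfa stood at 0, 0.560 and 0.565 CPM in 67NR tumors and at 89.1, 98.6 and 97.3 CPM in 4T1 tumors (7.67, SE 0.35, adjusted p = 7.62e-09), and Areg rose by 4.48. Btc went from 41.4, 36.6 and 43.2 CPM to 2.19, 1.02 and 0.432 CPM (-5.22, SE 0.35, adjusted p = 9.66e-08), and Ereg fell by 4.07. The receptor Egfr rose from 3.49, 2.80 and 5.08 CPM to 16.3, 23.4 and 22.2 CPM (2.19, SE 0.28). Erbb2 and Met overlapped, with log2 fold changes of 0.14 and -0.27. Over 35 growth factor and receptor genes, 11 were higher and 4 lower, with a median of 0.69 (0.68 with bounds). Ret and Fgfbp1, with no count in 67NR tumors, were at least 2.00-fold and 1.60-fold higher, and Fgfbp1 was not called without 67NR replicate 2 (adjusted p = 0.0528).

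Wnt, BMP and Notch genes were higher in 15 of 32 cases and lower in none, with a median of 1.29. Inhba, a subunit of activin, rose from 3.76, 3.08 and 6.49 CPM to 372, 317 and 513 CPM (6.24, SE 0.33, adjusted p = 1.34e-08). Wnt7b rose from 4.03, 5.32 and 3.67 CPM to 172, 166 and 228 CPM (5.19, SE 0.35), and Wnt5a from 2.42, 1.96 and 1.69 CPM to 18.3, 18.9 and 34.1 CPM (3.29, SE 0.36). These secreted ligands were apart between the groups by a wide margin. Bmp7 had 1 count in each 67NR tumor and a ratio of 74.3 (25.4 to 360). The Wnt target Lef1 rose by 3.13, while Axin2, another target, had a log2 fold change of 0.79 and was not called. Bmp4 and Notch1 stayed under 6 CPM in every tumor of both lines and were not called.

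Of 8 hormone receptor and milk protein genes, 2 were higher and 1 lower, beside 12.3% and 11.0% of all genes, with a median of 0.23. Esr1, the estrogen receptor, rose from 4.30, 3.36 and 6.49 CPM to 16.5, 22.1 and 22.4 CPM (1.85, SE 0.32), and the groups did not overlap. Csn3, a casein of milk, fell from 66.9, 135 and 147 CPM to 7.13, 10.5 and 4.10 CPM (-4.27, SE 0.45), while Csn2 lay under 2 CPM in all 6 tumors. Pgr, the progesterone receptor, was not called (0.97, adjusted p = 0.152), except with no filter on low counts (adjusted p = 0.0324).

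Imprinted genes, which are expressed from 1 parental copy, were higher in 12 of 22 cases and lower in 2, with a median of 1.22. Beside H19, Phlda2 of the same chromosomal region stood at 0.269, 0 and 0.847 CPM in 67NR tumors and at 61.1, 64.2 and 42.7 CPM in 4T1 tumors (6.91, SE 0.43). Meg3 rose from 88.4, 27.4 and 36.4 CPM to 221, 256 and 283 CPM (2.10, SE 0.31), whereas Dlk1, expressed from the other parental copy of the same locus, fell from 16.1, 21.5 and 18.3 CPM to 1.65, 2.05 and 4.32 CPM (-3.07, SE 0.35). Mest was the other gene that fell, by 1.26. In order along the reference annotation, 2 runs of 6 neighbouring tested genes were all called the same way. In the first, Col1a2, Casd1, Sgce, Peg10, Ppp1r9a and Pon3 were higher by 1.27 to 3.20, a run that holds the imprinted genes Sgce and Peg10. In the second, 4933431E20Rik and the glutathione S-transferases Gstm5, Gstm7, Gstm6, Gstm2 and Gstm1 were lower, with log2 fold changes of -3.15 to -1.06 outside Gstm7 and Gstm6, which had 1 or 2 counts over the 4T1 tumors, and Gstm1 went from 113, 104 and 85.3 CPM to 10.6, 16.4 and 13.4 CPM. The transferases are close in sequence, and reads may be shared among them. Order was known for 16133 of the 18235 symbols.

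Germline genes were lower in 4 of 8 cases and higher in 1, with a median of -0.76. Tex101, a surface protein of germ cells, joined Rhox5 and Pnma5: it stood at 10.8, 9.51 and 6.78 CPM in 67NR tumors and had no count in 4T1 tumors, at least 14.9-fold lower. Stk31, with no count in 67NR tumors and under 1 CPM in every 4T1 tumor, was called higher by edgeR and not by DESeq2 (adjusted p = 0.0604). Without 4T1 replicate 1 or 3 no gene of this list was called higher and 3 were called lower.

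**Figure D4:**
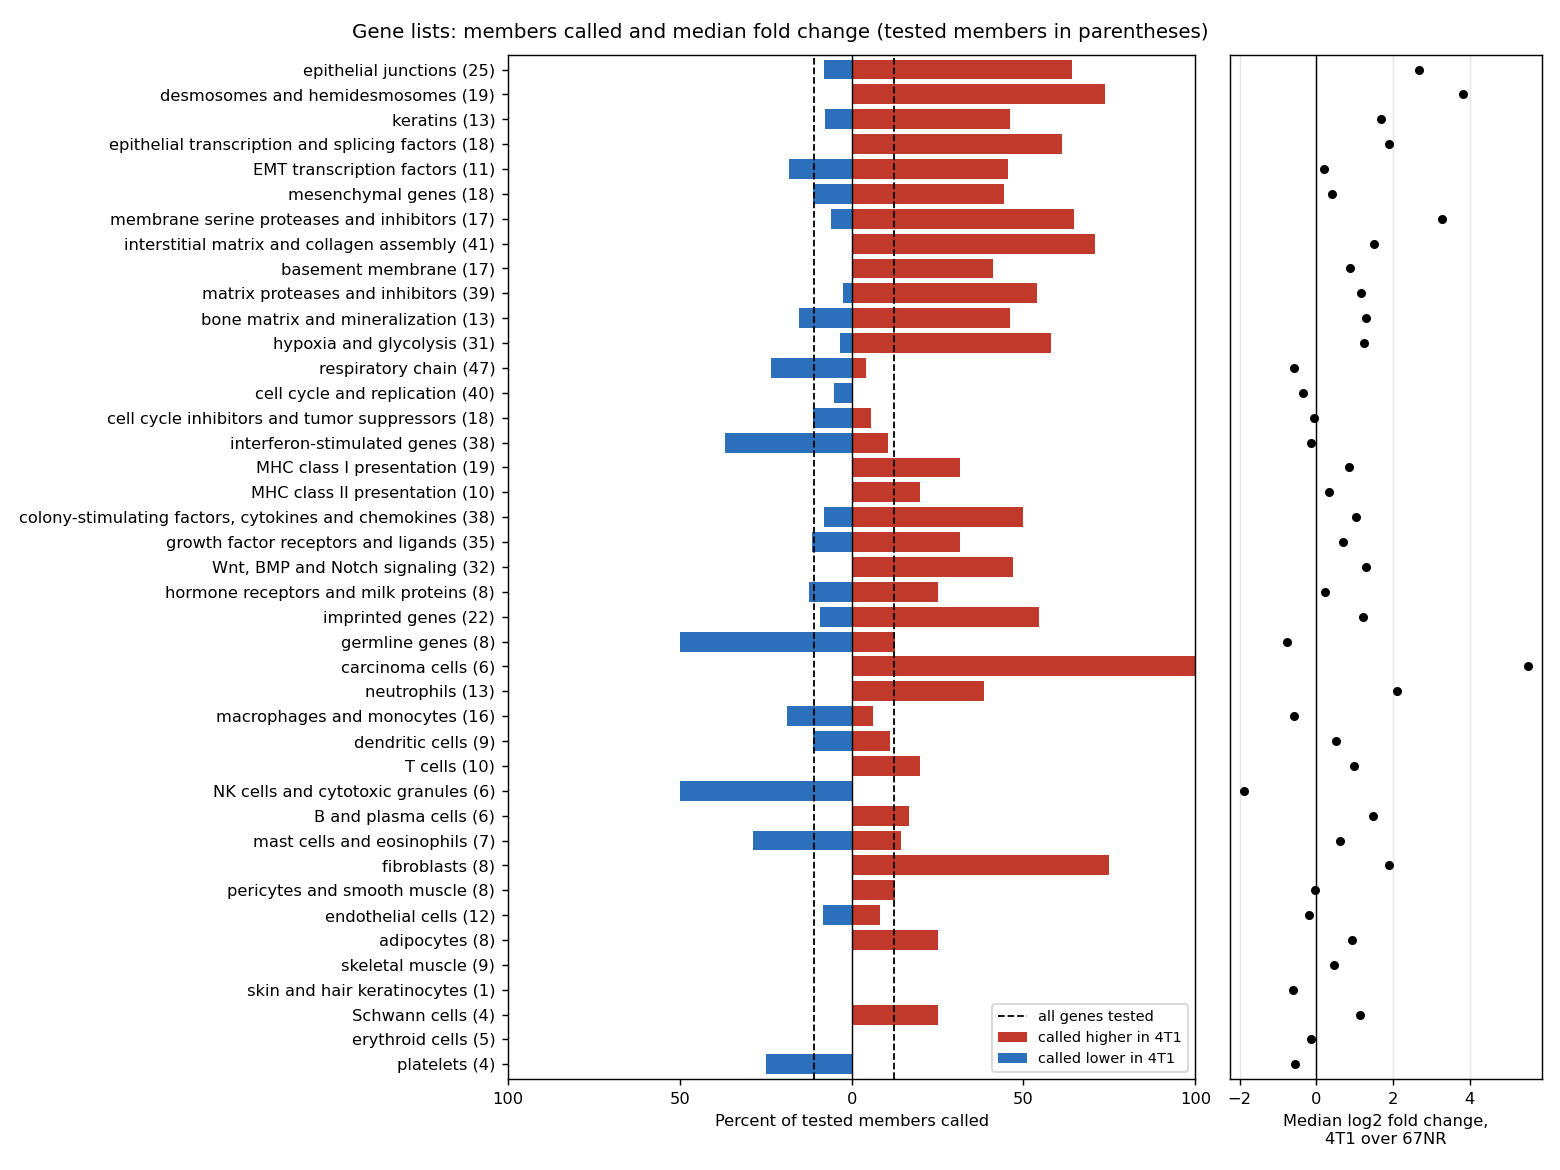
Percent of tested members of each of the 41 gene lists called higher (red, right) or lower (blue, left) in 4T1 tumors, with dashed lines at the 12.3% and 11.0% of all genes, and the median log2 fold change at the right. All 6 carcinoma markers, which are also in the epithelial junction and keratin lists, and 14 of 19 desmosome genes were higher. Medians of the cell cycle inhibitor, interferon, pericyte, endothelial and erythroid lists turn positive on library totals.

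Markers of cell types were then read. The tumors labelled 67NR held few transcripts of the carcinoma markers Epcam, Cdh1, Krt8, Krt18, Krt7 and Krt19, which summed to 29.3, 37.5 and 17.5 CPM against 1311, 1172 and 1216 CPM in 4T1 tumors, and all 6 were called higher. These 6 markers are also members of the epithelial junction and keratin lists above, so they repeat those results. The share of carcinoma cells in the tumors was not measured. The sums of wider epithelial lists were lower in 67NR tumors as well. Epithelial junction genes summed to 349 to 396 CPM against 1277 to 1297 CPM in 4T1 tumors. That list holds Cdh1 and Epcam, and the 67NR sums include Cldn9, which was higher in 67NR tumors. Desmosome and hemidesmosome genes summed to 477 to 769 CPM against 1432 to 1671 CPM. These sums include Plec and Dst, which also serve cells other than epithelia and were not called.

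Neutrophil markers summed to 37.4, 391 and 27.7 CPM in 67NR tumors and to 916, 617 and 874 CPM in 4T1 tumors. Of 13 markers, 5 were higher, with a median of 2.10, and without 67NR replicate 2 this was 9 of 13 and 4.80. S100a8, a calgranulin stored by neutrophils, stood at 11.8, 201 and 8.19 CPM against 413, 249 and 400 CPM, which did not overlap but was not called (adjusted p = 0.091). Without 67NR replicate 2, S100a8 and S100a9 were called (adjusted p = 0.00011 and 0.00015). Trem1, an activating receptor of myeloid cells, stood at 0.538, 1.40 and 0.282 CPM against 37.3, 35.3 and 23.3 CPM (5.14, SE 0.41), and Il1r2 at 1.08, 1.68 and 1.41 CPM against 22.3, 15.4 and 15.5 CPM (3.41, SE 0.34). Both calls held without that replicate, and Csf3r, the receptor of granulocyte colony-stimulating factor, overlapped at 4.57, 6.15 and 4.23 CPM against 6.58, 5.33 and 4.96 CPM.

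Macrophage markers were abundant in both lines, summing to 4221 to 4464 CPM in 67NR and 3261 to 4198 CPM in 4T1 tumors. Of 16 markers, 3 were lower and 1 higher, beside 11.0% and 12.3% of all genes. The median of the markers was -0.58, and -0.33 on library totals. Adgre1, which encodes F4/80, fell from 87.9, 97.6 and 137 CPM to 45.3, 49.8 and 46.2 CPM (-1.44, SE 0.23), and Ms4a7 from 81.4, 95.1 and 94.3 CPM to 41.3, 32.6 and 37.3 CPM (-1.53, SE 0.20). The remaining lower gene, Fcgr1, fell below 2-fold on library totals (-0.80) and without 4T1 replicate 2 or 67NR replicate 2 (-0.98 and -0.96). It did so with other filters on counts as well. Mertk, a receptor for apoptotic cells, rose from 12.1, 8.39 and 7.62 CPM to 46.3, 33.2 and 29.1 CPM (1.71, SE 0.27). Cd68 overlapped, and Csf1r had a log2 fold change of -0.92 that did not pass the fold threshold, but did without 4T1 replicate 2 or 67NR replicate 3 (-1.02 and -1.04).

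The 6 listed markers of natural killer (NK) cells and cytotoxic granules were lower in sum in every 4T1 tumor, at 42.8 to 50.8 CPM against 187, 189 and 201 CPM in 67NR tumors. Gzma, a granzyme of NK cells, fell from 116, 111 and 131 CPM to 5.67, 5.94 and 6.26 CPM (-4.57, SE 0.19, adjusted p = 3.53e-09), and Ncr1, the receptor NKp46, from 27.4, 22.7 and 19.2 CPM to 4.94, 6.76 and 1.30 CPM (-2.64, SE 0.38). Klrb1c had 3 counts over the 4T1 tumors and a ratio of 15.7 (5.36 to 76.0). These 3 of 6 genes were called, and Klrd1, Gzmb and Prf1 had log2 fold changes of -0.66, -1.12 and -0.34 and were not. Gzmb was called lower by DESeq2 (adjusted p = 0.0425), with thinned libraries, with no filter, and without 4T1 replicate 3 or 67NR replicate 1 (adjusted p = 0.0213 and 0.00655). The direction of the sum depends on the granzymes it holds. The granzymes Gzmc, Gzmd, Gzme, Gzmf and Gzmg, which are not in the list and were added after their values were seen, summed to 1.34, 4.20 and 2.82 CPM in 67NR tumors and to 205, 173 and 191 CPM in 4T1 tumors, and with them the sum was 188, 193 and 204 CPM against 256, 216 and 237 CPM.

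Markers of lymphocytes were low and varied. The counts in this paragraph stand beside 12.3% of all genes called higher and 11.0% lower. Of 10 T cell markers 2 were called higher, Cd3e, which overlapped at 3.49, 0.560 and 0.565 CPM against 9.33, 13.7 and 3.02 CPM, and Cd3g at 1.08, 1.12 and 0.847 CPM against 4.57, 5.33 and 1.51 CPM. Without 4T1 replicate 2, or without 67NR replicate 2 or 3, none was called, and without 4T1 replicate 3 there were 4. Cd4 and Cd8a overlapped, and Cd8a was called higher without 67NR replicate 1 (adjusted p = 0.0322). Of 6 B cell markers 1 was called higher, none was called without 4T1 replicate 1 or 2 or without 67NR replicate 1 or 2, and 4 were called higher without 4T1 replicate 3. Dendritic cell markers gave 1 higher, Itgax (1.43), and 1 lower, Xcr1 (-1.03), of 9, and Xcr1 was not called without any of the 4T1 tumors or without 67NR replicate 1 (adjusted p = 0.0552 to 0.160), nor on library totals or with any other filter, where its change fell below 2-fold. Of 7 mast cell and eosinophil markers, the mast cell proteases Mcpt4 and Cpa3 fell by 1.87 and 1.53 and the eosinophil granule gene Prg2 was higher, but Prg2 had 1 count over the 67NR tumors and lost its call in 4 of the 6 fits that left out a tumor. Without 67NR replicate 1 the list held 3 higher and 2 lower genes.

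Stromal markers were led by fibroblasts, for which 6 of 8 were higher, with a median of 1.89 and sums of 250, 269 and 319 CPM against 719, 1077 and 896 CPM. Dcn, the proteoglycan decorin, rose from 71.2, 82.8 and 108 CPM to 283, 419 and 440 CPM (1.87, SE 0.22), and Pi16 from 12.4, 10.4 and 15.2 CPM to 56.1, 63.5 and 62.4 CPM (2.01, SE 0.22). Dpt, at 51.9, 81.4 and 76.8 CPM against 64.0, 97.8 and 60.2 CPM, overlapped. The collagen values given above moved with these markers, and the part of fibroblast content in them was not tested. Endothelial markers gave 1 higher, Prox1 of lymphatic vessels, and 1 lower, Cldn5, of 12, beside 12.3% and 11.0% of all genes. Prox1 was not called without 4T1 replicate 1 or 67NR replicate 3 (adjusted p = 0.103 and 0.0908) or by DESeq2 (0.0569), nor Cldn5 on library totals, and Pecam1, at 47.6, 41.1 and 36.7 CPM against 46.4, 50.2 and 48.3 CPM, overlapped. Of 8 pericyte markers 1 was higher, Cspg4 (1.51), and without 67NR replicate 1 there were 2.

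Adipocyte and skeletal muscle markers varied between replicates, and the origin of their transcripts was not tested. The counts in this paragraph stand beside 12.3% of all genes called higher and 11.0% lower. Adipocyte markers summed to 359 to 541 CPM in 67NR tumors and to 739, 1248 and 488 CPM in 4T1 tumors, and the 2 called of 8, Cidec and Cfd, were not called without 4T1 replicate 2 (adjusted p = 0.235 and 0.154) or without 67NR replicate 2 or 3, nor Cfd without 4T1 replicate 1 (0.0589), whereas 4 were called higher without 4T1 replicate 3. Skeletal muscle markers summed to 21.2, 5.04 and 350 CPM against 144, 30.7 and 456 CPM, and none of 9 was called, but without 67NR replicate 3 the count was 7 higher. Schwann cell markers gave 1 of 4 higher, Mbp, which rose from 12.9, 6.71 and 5.93 CPM to 33.8, 36.9 and 33.0 CPM, and 2 without 4T1 replicate 3. Of 4 platelet markers Itga2b fell, from 20.2, 19.3 and 17.5 CPM to 3.47, 4.71 and 2.16 CPM (-2.69, SE 0.41). Ppbp went the other way and was not called in the full fit. It was called higher with the 6 tumors alone (log2 fold change 1.35, adjusted p = 0.0136) and with no filter on low counts (1.40, adjusted p = 0.000242). None of 5 erythroid markers was called, nor was Krt10, the keratinocyte marker that alone of its list was tested.

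**Figure D5:**
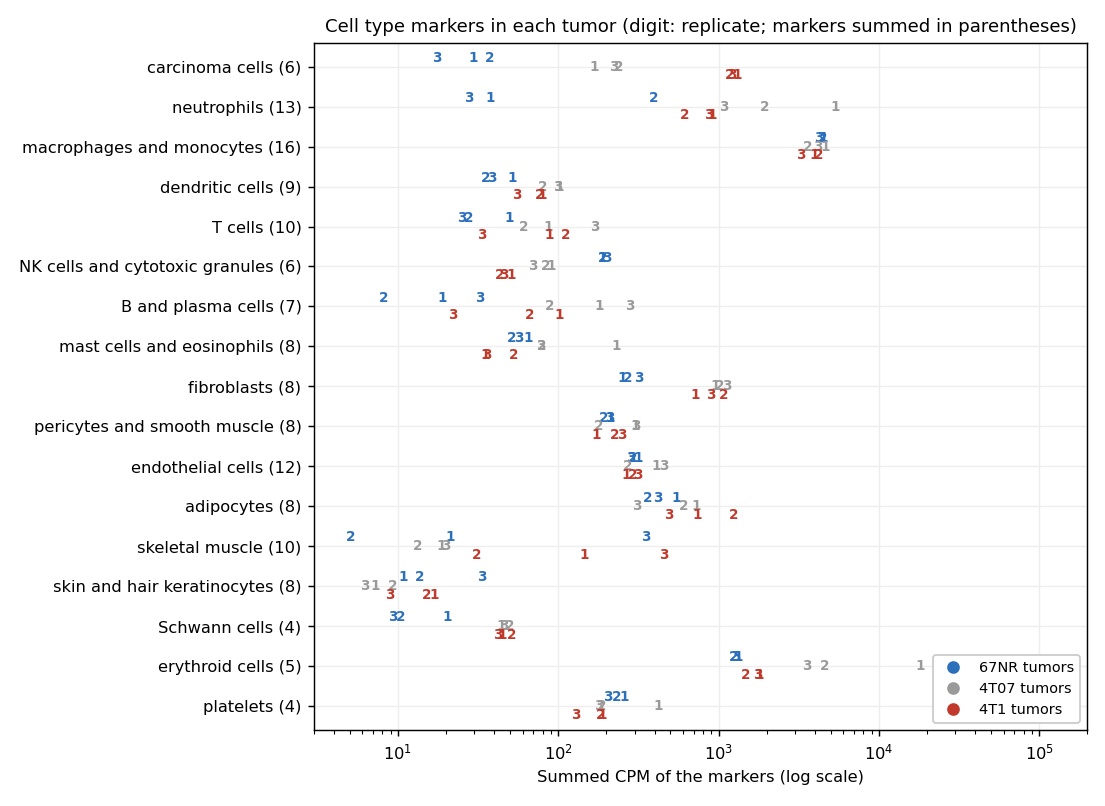
Summed CPM of the markers of each cell type in every tumor, on a logarithmic axis, with each digit naming a replicate and colors naming the line. Sums of carcinoma markers, which are also in the epithelial junction and keratin lists, and of fibroblast markers are higher in all 4T1 tumors. The sum of the 6 NK and granule markers is lower (higher once Gzmc to Gzmg are added, which are not plotted). 67NR replicate 2 stands at 391 CPM of neutrophil markers against 27.7 and 37.4 CPM in the other 67NR tumors.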

How the data were processed

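Libraries were 3′ tag libraries with molecular identifiers (QuantSeq), and the authors deposited a table of read counts per gene symbol for 45 libraries. Per the submitters' processing notes, reads were handled with Trim Galore 0.5.0, STAR 2.6.0 and featureCounts. The genome build, annotation, strand setting and use of the identifiers were not given in the sources used here. Of the count columns, 1 (a control scaffold) was not used, which leaves 2 control scaffold libraries. The deposited counts of repeated symbols were summed, and levels are given as CPM, counts divided by the library total times 1000000. The test was the quasi-likelihood F test of edgeR 4.0.16 in R 4.3.3, fitted with TMM factors to 9 tumors of 3 lines, on symbols whose counts in the 6 compared tumors summed to more than 10, with Benjamini-Hochberg adjustment. SE is an approximate standard error, the absolute log2 fold change divided by the square root of its F statistic. SD is the standard deviation between tumors. Total counts of 3542368 to 5468658 per compared tumor set the precision: 3 counts are 0.549 to 0.847 CPM. Where a line had 1 to 3 counts over its tumors, the ratio of the pooled levels is given with the exact Poisson interval (95%) of those counts, which covers counting error only. Where it had none, the fold is a lower bound against 3 counts per library.

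The genes named were the 10 largest changes in each direction among called, non-overlapping genes with a mean of at least 5 CPM, the 5 largest gains and losses in CPM, the 4 largest called and the first 3 members of each of 41 lists, and called runs of 6 or more neighbours, except a few genes that are not reported here. Other members are named as listed, and genes outside these rules are said to have been chosen after their values were seen. Members and lists were chosen with earlier results of these data known. Counts simulated on 17792 genes with 200 changed 4-fold were tested the same way, and edgeR called 96.5% of these, with 6.311% of its calls in unchanged genes. The changed genes were drawn from those with a mean of at least 5 CPM, with equal numbers raised and lowered. The share called therefore does not cover genes at lower levels, and neither share covers a comparison with as many calls as this one. Alternatives were DESeq2 1.42.0, other scaling and filters, thinned libraries and leaving out each tumor. Promoter windows were taken from RefSeq (GRCm38.p6) by symbol and matched for 49 of 72 leading genes.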

Additional observations from a re-analysis of the deposited data

Results flagged for a closer look

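Genes that were high in the 67NR tumors and at or near 0 in control tissues gave a signal in organs that the tumor comparison does not use, above the level of the control organs. Rhox5 averaged 64.4 CPM in spleens, 21.7 CPM in lungs and 18.0 CPM in scaffolds of 4T07 mice, and 5.61 CPM in scaffolds of 4T1 mice. Lncenc1 averaged 24.2, 7.87 and 6.33 CPM in the same 3 tissues of 4T07 mice. Replicate 1 carried the scaffold means: without it Rhox5 averaged 3.25 CPM in scaffolds of 4T07 mice and 1.56 CPM in those of 4T1 mice, and Lncenc1 1.72 CPM in those of 4T07 mice. Pnma5 averaged 22.1 CPM in their spleens and 6.81 CPM in their lungs. Cldn9 averaged 11.4 CPM in spleens and 3.09 CPM in lungs, Xlr3c 5.57 and 1.68 CPM, and Sprr1a 2.65 CPM in spleens. Without replicate 1 of the tissue, the means in lungs of 4T07 mice were 12.1 CPM for Rhox5, 4.92 CPM for Lncenc1 and 1.78 CPM for Cldn9, and that of Pnma5 in spleens was 12.8 CPM, while the other means moved by less than 1.5 times. With 3 libraries against 3 an exact two-sided permutation test cannot give a p under 0.1, and against the 2 control scaffolds it cannot give one under 0.2.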

How the results depend on the processing

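The number of genes called stayed within 1.5 times 4256 under DESeq2 (3913), DESeq2 size factors in edgeR (4263), library totals (4415), no filter (4482 of 29306 tested), a filter over 9 tumors (4244), thinned libraries (4068) and the 6 tumors alone (4174). Asking for at least 10 counts in each of the 6 tumors gave 1960 of 10718 genes (965 higher, 995 lower), a rule that removes genes absent from 1 line. With no minimum fold the count was 6583, of which 3350 were lower, and it was 1507 at a stricter threshold (adjusted p 0.01, fold 4) (862 higher, 645 lower). Leaving out 1 tumor gave 3639 to 4259 genes, 1892 to 2319 higher and 1747 to 1940 lower, and 24 to 28 lists with more higher than lower members (27 with all tumors) and 8 to 9 with the reverse. The mast cell and eosinophil list changed its balance without 67NR replicate 1, with 5 called, 3 of them higher and 2 lower. Of 187 named genes called, 163 were called in every alternative that tested them, and the cause of the losses was not tested. Adding Gzmc to Gzmg to the NK and cytotoxic granule markers, an alternative chosen after seeing the data, turned the difference of the mean sums (4T1 minus 67NR) from -146 to 41.2 CPM. Depth limits genes near 1 CPM, where a few counts decide a call. No paired analysis was possible because each mouse received cells of only 1 line, so that tumors of different lines came from different mice.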

Other observations

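Genes and lists in this section were chosen after their values were seen. Of all genes tested, 12.3% were called higher and 11.0% lower. Arg1, which encodes arginase 1 of alternatively activated macrophages, stood at 3.23, 3.64 and 5.93 CPM in 67NR tumors and at 515, 627 and 669 CPM in 4T1 tumors (log2 fold change 6.89, SE 0.26). Macrophage markers as a whole did not show such a rise. Granzymes were called in both directions: of 8 tested, Gzmc, Gzmd, Gzme, Gzmf and Gzmg were higher and Gzma and Gzmk lower. Gzmd stood at 0.269, 1.12 and 0 CPM against 43.3, 31.6 and 42.7 CPM, and Gzmf at 0, 0.839 and 1.13 CPM against 57.1, 49.4 and 54.2 CPM. The 5 higher genes lie close in sequence, and reads may be shared among them.

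Of 22 target genes of p53, the tumor suppressor that answers DNA damage, 11 were lower and 3 higher in 4T1 tumors. Over all genes 11.0% were lower and 12.3% higher, shares that also stand beside the 2 lists that follow. The median log2 fold change of the p53 targets was -0.92, while Trp53 itself was not called with all 6 tumors. Eda2r fell from 42.5, 69.1 and 61.5 CPM to 2.93, 2.87 and 4.10 CPM, and Ccng1 from 84.7, 117 and 135 CPM to 33.8, 32.2 and 38.6 CPM. Trp53cor1 had 3 counts over the 4T1 tumors, and its level in 67NR tumors was higher by a ratio of 61.7 (21.1 to 299). Of 20 glutathione S-transferases, which conjugate electrophiles, 10 were lower and 2 higher, and Gstt1 fell from 231, 270 and 245 CPM to 7.31, 8.81 and 7.34 CPM. Of 27 Hox genes, which set position along the body axis, 12 were higher and none lower, and Hoxa5 rose from 48.6, 26.9 and 27.1 CPM to 414, 371 and 331 CPM. Gdnf, a neurotrophic factor, stood at 13.7, 15.1 and 15.8 CPM against 0.366, 0.615 and 1.08 CPM.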
